A study of Mus musculus with 12 samples.

Results

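The 51 genes described here are named after the translation initiation factors of the mouse, and they are all gene symbols of the count files that start with Eif and a digit from 1 to 6, without the eIF2 kinases (Eif2ak). They are 51 of 24062 gene symbols counted in each library, and they were placed in 11 complexes or families by the textbook role of their products. The term initiation factors is used here by symbol. It thus takes in genes with other main roles, such as the 4E-BP genes, Eif5a, Eif4a3 and Eif4enif1. The libraries are polyadenylated RNA of 12 mice, 1 library per mouse, in 4 groups of 3. Livers came from male FVB LAP-tTA/TRE-MYC mice, termed MYC-ON, in which the LAP-tTA driver turns on a human MYC transgene in hepatocytes. Their breeders drank doxycycline water (1 mg/mL), which keeps the transgene off, and MYC was switched on at birth in control and No-Trp mice alike. Control livers are mice 101, 102 and 103 and No-Trp livers are mice 105, 107 and 108. Xenografts are tumors of HCC53N, a single mouse liver cancer line labelled as p53 knockout with overexpressed mutant NRAS, injected subcutaneously into NOD SCID hosts (labelled NOD-SKID), which the methods give as female while mentioning repeats in males. The labels do not give the host sex of single libraries. The labels describe the injected cells as FVB MYC ON as well. Control xenografts are mice 40, 41 and 43 and No-Trp xenografts are mice 35, 36 and 37. In each model the mice were moved to a complete control diet or to a diet without tryptophan (No-Trp) for 21 days. The labels give an age of 45 days for MYC-ON males in a comparison with wild-type mice, but none specifically for the mice on these diets.

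Initiation factors bring the small ribosomal subunit, the initiator tRNA and the mRNA together. eIF1 and eIF1A hold the small subunit open for scanning, eIF2 delivers the initiator tRNA with GTP, and eIF2B recharges eIF2 with GTP. eIF3 is the large scaffold on the small subunit, and the eIF4 group binds the mRNA cap (eIF4E), unwinds the mRNA (eIF4A, helped by eIF4B and eIF4H) and bridges the mRNA to eIF3 (eIF4G). The 4E-BP proteins hold eIF4E back when mTORC1 is inactive. eIF5 triggers GTP hydrolysis by eIF2, eIF5B joins the subunits, eIF6 keeps the large subunit apart until it is mature, and eIF5A acts mainly in elongation and carries the polyamine-derived residue hypusine. The eIF2 kinase GCN2 is switched on by uncharged tRNA when an amino acid is short. MYC is known for raising the transcription of many of these genes.

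In the livers, RNA of many initiation factors was lower on the No-Trp diet. Of the 51 genes, 48 passed the filter on low counts, and 36 of these (75%) had a negative log2 fold change, against 50.2% of all 14122 genes tested. At an adjusted p of at most 0.05 (edgeR), 12 fell and 1 rose, or 25% and 2.08% of the 48, where 12% of all genes tested fell and 13.3% rose. The genes that fell encode eIF1A (Eif1ax), the catalytic and regulatory subunits of eIF2B (Eif2b1, Eif2b4 and Eif2b5), eIF3 subunits (Eif3b and Eif3d), the eIF4A helicases (Eif4a1 and Eif4a3), the cap-binding protein (Eif4e) and its transporter (Eif4enif1), the subunit-joining factor (Eif5b), and Eif2a. The gene that rose was Eif2s3y. The falls ranged from 0.56 to 0.90 on the log2 scale, so that none reached the second threshold of the study, a log2 fold change of 1, which 7.27% of all genes tested passed as lower and 9.28% as higher. In the xenografts no member passed (edgeR), where 0.245% of all genes rose and 0.129% fell. There, 30 of 48 members had a negative log2 fold change (62.5%, against 50.5% of 14704 genes), 6 were lower and 4 higher at an unadjusted p under 0.05 (12.5% and 8.33%, against 9.07% and 7.82% of all genes), and DESeq2 called no member either, where it called 2.22% of all genes higher and 1.94% lower. All No-Trp tumors lay below all controls in 12 of 48 members (25%, against 12.4% of all genes) and above them in 3 (6.25%, against 10.3%).

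The calls in the livers depended on which mice were in the fit, among the members as among all genes. Without control mouse 101, without control mouse 103 or without No-Trp mouse 105, no member passed. Over all genes, 1874 rose and 1696 fell in the main fit. Without mouse 101 these were 181 and 118, without mouse 103 they were 7 and 1, and without mouse 105 they were 300 and 70. Without No-Trp mouse 107 there were 4 falls among the members (989 over all genes). Without control mouse 102 there were 13 (1828), and without No-Trp mouse 108 there were 12 (1269). Eif2s3y passed in none of these 6 fits. All 13 called genes kept their direction and an unadjusted p under 0.05 when any of the 6 mice was left out. With the resubmission mark of the files as a term in the fit, 19 members fell and 4 rose, where 1935 and 2141 of all 14122 genes did. DESeq2 called 14 members lower and 2 higher, where it called 15.2% of all genes lower and 15.7% higher. In the ranges of single mice, all 3 No-Trp livers lay below all 3 controls in 22 of 48 members (45.8%, against 24.3% of all genes tested), and above them in 6 (12.5%, against 24.3%).

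**Figure D1:**
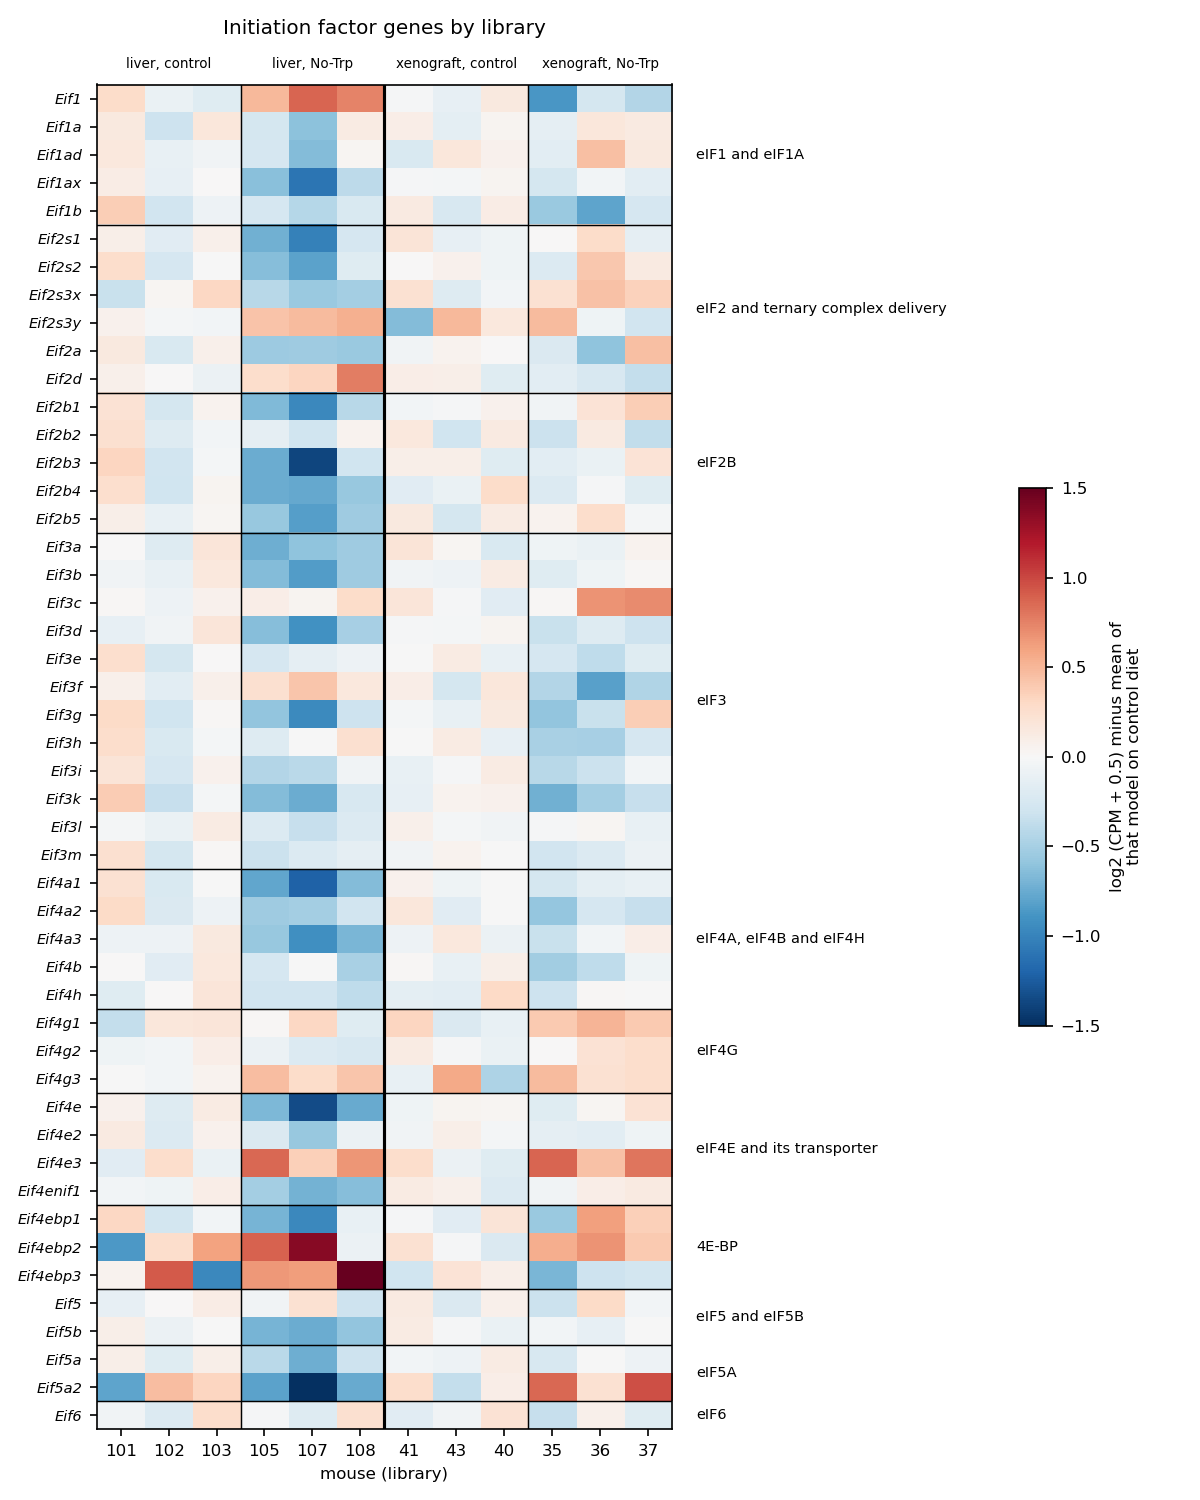
Each row is 1 of the 48 initiation factor genes tested, grouped by complex, and each column is 1 library. Color gives log2 (CPM + 0.5), with CPM the counts scaled to library size with TMM factors within each model, minus the mean of the control diet in that model, drawn from -1.5 to 1.5. Blue, for lower values, prevails in the 3 No-Trp livers, where 36 of 48 members had a negative log2 fold change, and the xenograft columns are paler.

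Members took 1.25% to 1.61% of the reads on genes in control livers and 0.761% to 1.05% in No-Trp livers, without overlap, and 1.34% to 1.41% against 1.32% to 1.45% in control and No-Trp xenografts. Levels are given as CPM, read counts scaled to the size of the library. Reads on genes ranged from 14660963 to 26085349 per library, and mice of a group differed by far more than counting noise. In the deposit's file names, 4 libraries carry a mark of resubmission (livers 101 and 108, control xenografts 41 and 43), and in control liver 101 the ribosomal precursor gene Rn45s took 12.1% of the reads on genes. Other genes moved with the diet too. All 8 cell division markers fell in the livers, with summed levels of 1235 to 1392 CPM on control diet and 94.3 to 399.5 CPM on No-Trp, while summed hepatocyte markers were 10632 to 35806 CPM and 47327 to 121160 CPM, and 4 of 8 rose. In the livers 4 of 5 erythroid markers, 1 of 6 fibroblast and stellate markers and 1 of 2 tested adipocyte markers fell as well, 1 of 6 endothelial and 1 of 6 fibroblast and stellate markers rose, and no marker of cholangiocytes, macrophages, lymphocytes or skeletal muscle passed. In the xenografts none of the 8 cell division markers passed (634.7 to 682.1 CPM and 798.1 to 1007 CPM), and 2 of 4 adipocyte markers rose, with summed levels of 12.9 to 75.5 CPM on control diet and 392.5 to 839.6 CPM on No-Trp. No marker of the other 8 lists passed there. Hepatocyte markers were far lower in the xenografts (587 to 1998 CPM in all 6) than in the livers, but none of the 8 was at 0. The part of these marker genes in the results on initiation factors was not tested. In such bulk RNA, fewer cells of a type and less RNA per cell cannot be told apart.

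Levels of different genes were compared per length, as RPKM (reads scaled by exon length in kilobases and by library size, with TMM factors over all 12 libraries). In control livers Eif4a1, the main mRNA helicase, was highest at 734 ± 116 RPKM (SD, n = 3), ahead of Eif5a at 636 ± 62.1 RPKM by less than that SD. In control xenografts Eif4a1 stood at 644 ± 29.5 RPKM, Eif3h at 456 ± 36.3 and Eif5a at 413 ± 33.0, and these last levels differed by about the size of their SDs. The 12 eIF3 subunits with reads lay between 96.0 ± 8.23 (Eif3f) and 230.5 ± 39.5 RPKM (Eif3h) in control livers. eIF2 was lower, with 55.6 ± 5.07 RPKM for the alpha subunit gene Eif2s1, which carries the site that GCN2 phosphorylates, 84.4 ± 14.9 for Eif2s2, 30.7 ± 6.55 for Eif2s3x and 34.1 ± 1.54 for Eif2s3y. eIF2B subunits lay between 18.3 ± 3.88 (Eif2b3) and 50.3 ± 8.20 RPKM (Eif2b1), and the cap-binding gene Eif4e at 37.2 ± 3.90 RPKM. The rarest of the 48 were Eif4e3, at 1.81 ± 0.356 RPKM, and Eif5a2, at 0.484 ± 0.240 RPKM, in control livers, and Eif2s3y in both groups of xenografts. Of the other members, Eif3j1 and Eif3j2, near-identical genes of an eIF3-associated protein, had 0 reads in all 12 libraries, which allows up to 0.115 to 0.205 CPM, and the oocyte gene Eif4e1b had 1 read, in control xenograft 41. Whether reads that match both genes were left out by the counting is not given in the sources used here, so the 0 of Eif3j1 and Eif3j2 is uncertain.

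**Figure D2:**
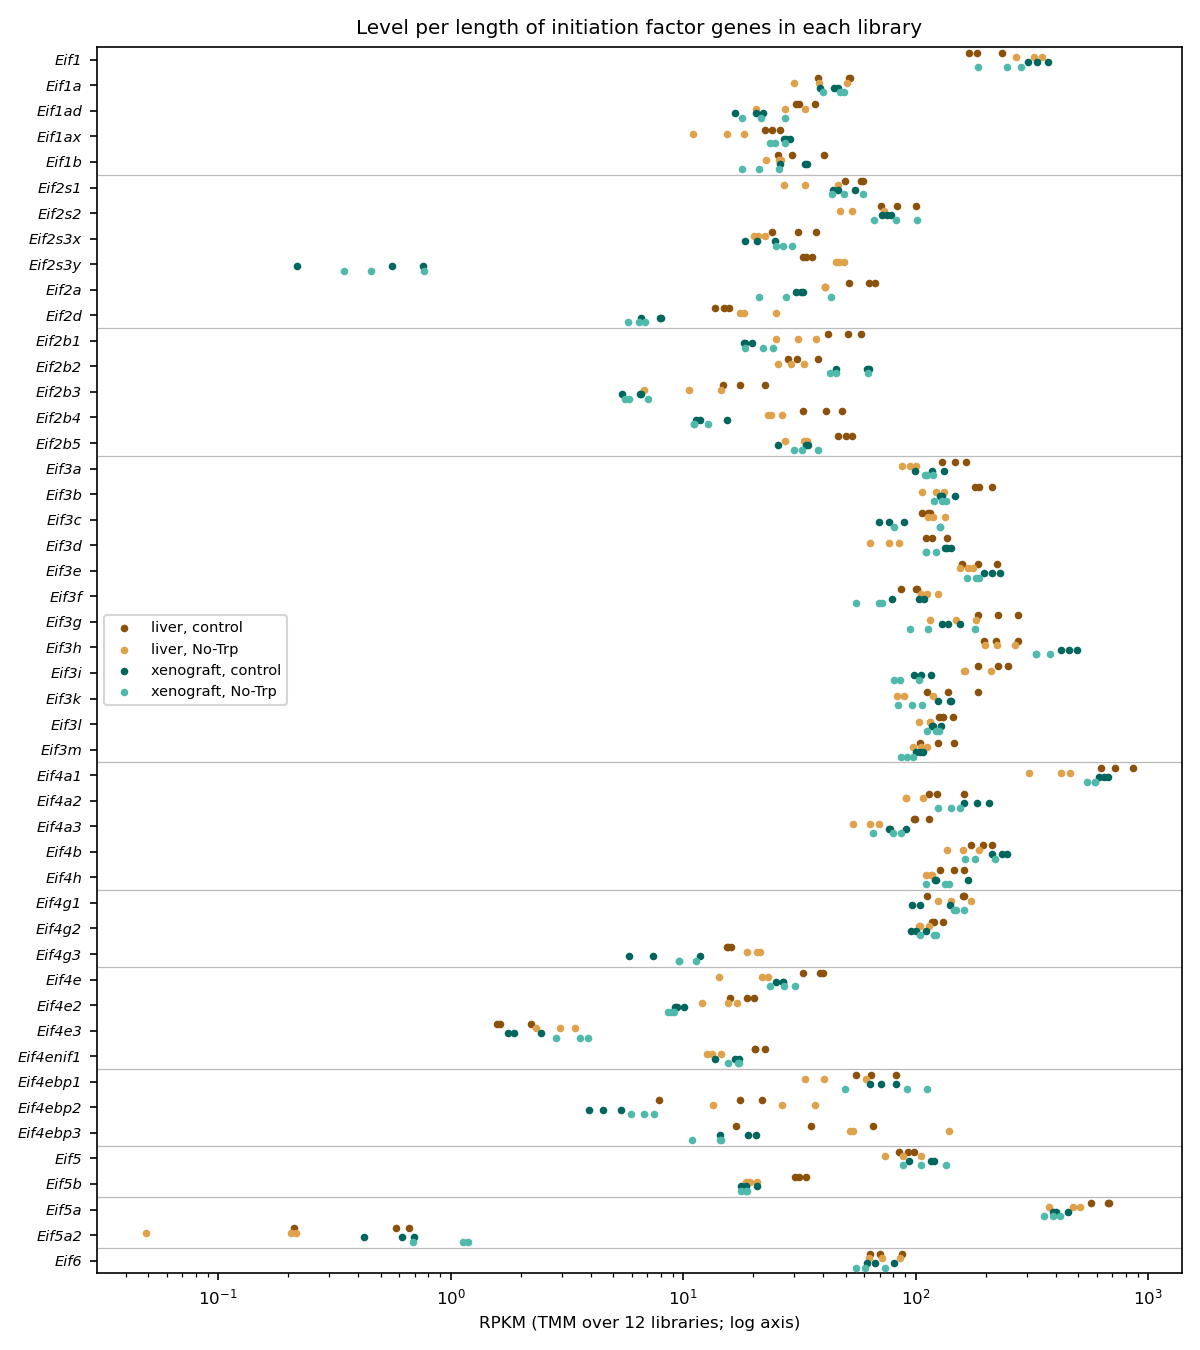
Points are RPKM of each library (log axis, TMM factors over 12 libraries), 3 mice per group, for the 48 initiation factor genes tested, in the order of the complexes. Eif4a1 and Eif5a lie at the high end in all groups, Eif5a2 and Eif4e3 at the low end, and Eif2s3y is low in the 6 xenografts only.

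Promoter windows of RefSeq (GRCm38.p6, 250 bases before to 50 after each start site) were searched for CACGTG, the E-box bound by MYC and its relatives, which reads the same on both strands. Of the members, 39 matched a window, and 10 of them (25.6%) held the motif, namely Eif1b, Eif3a, Eif3f, Eif3k, Eif4a1, Eif4e, Eif4g1, Eif4h, Eif5a and Eif5a2, where 8.09% of all 27025 genes with a window held it. Among genes tested in the livers the gap was smaller. There 26.3% of 38 members with a window held the motif, against 11.5% of all 10576 genes with a window. The stretches of 90 bases that follow lie before the start sites, with the E-box shown at -189 to -184 in Eif4a1 and between -68 and -39 in the others, of members that the results turn on: Eif4a1 and Eif4e, which fell in the livers, Eif3f, whose diet effect differed between the models, and Eif3k and Eif4g1, the members of their complexes with the smallest p in the xenografts. Eif4e and Eif4g1 hold another E-box outside the stretch. The E-box is in capitals, and each stretch is written 5′ to 3′ on the strand of its gene.
Eif4a1 (chr11:69672563-69672652, minus strand): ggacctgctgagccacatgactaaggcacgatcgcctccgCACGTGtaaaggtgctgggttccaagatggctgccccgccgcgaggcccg
Eif4e (chr3:138527164-138527253, plus strand): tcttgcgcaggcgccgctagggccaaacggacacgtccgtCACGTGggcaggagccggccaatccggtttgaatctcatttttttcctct
Eif3f (chr7:108934307-108934396, plus strand): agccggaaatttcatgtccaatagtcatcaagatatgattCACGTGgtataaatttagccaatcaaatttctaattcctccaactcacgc
Eif3k (chr7:28981889-28981978, minus strand): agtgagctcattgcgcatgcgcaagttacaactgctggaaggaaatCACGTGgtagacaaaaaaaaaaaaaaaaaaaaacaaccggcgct
Eif4g1 (chr16:20672633-20672722, plus strand): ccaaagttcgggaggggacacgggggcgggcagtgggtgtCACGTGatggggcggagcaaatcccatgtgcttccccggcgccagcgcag

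All 10 members with an E-box were tested in the livers, where 2 of them fell (20%), as did 10 of the 28 tested members with a window and no E-box (35.7%). The median log2 fold change was -0.52 with the motif and -0.49 without it. Among all genes tested the medians were -0.09 and 0.01, and 15.6% and 11.9% fell. The ATF4-type element TGATGNAA, searched on both strands, was in the window of 1 member (Eif2s3x, 2.56%, against 4.51% of all genes).

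The eIF1 and eIF1A genes differed in sign in the livers. Eif1ax, the X-linked eIF1A gene, stood at 119, 101 and 111 CPM in control mice 101, 102 and 103 and at 70.9, 51.1 and 83.5 CPM in No-Trp mice 105, 107 and 108. All No-Trp livers lay below all controls, and Eif1ax fell by 0.69 on the log2 scale (SE 0.20, edgeR, adjusted p = 0.0458). Its autosomal copy Eif1a was 189, 138 and 192 CPM and 142, 111 and 187 CPM, with overlap. Eif1, which guards the choice of start codon, was 389.8, 301 and 283 CPM in the controls and 449, 591 and 539 CPM on No-Trp. Its No-Trp livers all lay above the controls, with a log2 fold change of 0.70 (SE 0.22) and an adjusted p of 0.0539 (edgeR), just short of passing. In xenografts 40, 41 and 43 Eif1 was 793, 709.8 and 656 CPM, and in No-Trp xenografts 35, 36 and 37 it was 391, 596 and 529 CPM. There the order was the opposite, with all No-Trp tumors below the controls and a log2 fold change of -0.51 (SE 0.19, edgeR, unadjusted p = 0.0227, adjusted p = 0.223). The difference between the models was -1.18 on the log2 scale (SE 0.28, xenograft minus liver, edgeR, adjusted p = 0.0195), the only called difference among the members of at least 1 on the log2 scale. With library totals it was -0.81 (adjusted p = 0.051). Its paralogue Eif1b was 39.9, 25.1 and 29.2 CPM and 25.8, 22.8 and 26.3 CPM in the livers and 42.5, 43.2 and 33.3 CPM and 26.7, 22.6 and 33.1 CPM in the xenografts. Eif1ad, an eIF1A-like gene that shares exon sequence with Banf1 on the other strand, overlapped between diets in both models.

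Among eIF2 subunits, the X- and Y-linked copies of the gamma subunit gene had opposite signs in the livers. Eif2s3x was 78.5, 101 and 123 CPM in the controls and 74.2, 67.4 and 69.3 CPM on No-Trp, with no overlap and a log2 fold change of -0.52 (SE 0.19, edgeR, adjusted p = 0.0794). Eif2s3y was 57.7, 53.9 and 53.5 CPM and 74.1, 76.9 and 79.8 CPM. It was higher in all No-Trp livers and rose by 0.48 on the log2 scale (SE 0.13, edgeR, adjusted p = 0.0357), the only member called higher, but scaled by library totals its log2 fold change was 0.19 (adjusted p = 0.49). In the xenografts Eif2s3y was low, with 10 to 39 reads per library. It stood at 1.17, 0.452 and 1.60 CPM in tumors 40, 41 and 43 and 1.58, 0.933 and 0.726 CPM in tumors 35, 36 and 37. Eif2s3x there was 87.0, 105 and 78.1 CPM and 104, 122 and 114 CPM, with overlap, a log2 fold change of 0.33 (SE 0.16) and an adjusted p of 0.323 (edgeR). The diet effect on Eif2s3x differed between the models by 0.88 (SE 0.24, edgeR, adjusted p = 0.0323). The alpha and beta subunit genes Eif2s1 and Eif2s2 had log2 fold changes of -0.63 and -0.53 in the livers (adjusted p = 0.0718 and 0.120) and of 0.05 and 0.13 in the xenografts. Eif2a, a factor that can bring tRNA to the ribosome without eIF2, was 143, 109.9 and 136 CPM in control livers and 88.0, 88.8 and 87.4 CPM in No-Trp livers, and fell by 0.56 (SE 0.15, edgeR, adjusted p = 0.0384). The No-Trp livers were nearly equal in this gene, and all lay below the controls. Eif2d, another such factor, had the opposite sign, at 56.9, 54.2 and 50.4 CPM and 64.5, 67.6 and 91.6 CPM (log2 fold change 0.47, adjusted p = 0.0863). Eif2a shares exon sequence with Serp1 and Eif2d with Rassf5 on the other strand, and the strand setting of the counting is not given in the sources used here, so that their counts are uncertain.

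Of the 11 complexes, eIF2B had the largest share of members that fell, 3 of 5 (60%, against 12% of all genes tested), and all 5 had a negative sign in the livers (100%, against 50.2%). Eif2b5, the catalytic subunit gene, was 121, 105 and 116 CPM on control diet and 76.3, 63.6 and 78.5 CPM on No-Trp, and fell by 0.64 (SE 0.15, edgeR, adjusted p = 0.0275). Eif2b4 was 101, 68.8 and 87.2 CPM and 50.4, 49.7 and 56.8 CPM, and fell by 0.71 (SE 0.18, adjusted p = 0.0310). Eif2b1, of the regulatory subcomplex that senses phosphorylated eIF2, was 119.6, 85.3 and 107 CPM and 64.9, 52.3 and 77.2 CPM, and fell by 0.68 (SE 0.20, adjusted p = 0.0465). In each of these genes the diets did not overlap, and mouse 102 was the lowest control. Eif2b3 had a log2 fold change of -0.77 and a wide spread (SE 0.29, adjusted p = 0.0912), and Eif2b2 one of -0.13. In the xenografts the values of all 5 genes overlapped between diets, with log2 fold changes from -0.19 (Eif2b2) to 0.18 (Eif2b1). Eif2b1 was 52.6, 48.5 and 49.3 CPM and 48.1, 57.7 and 65.0 CPM there. The diet effect differed between models for Eif2b1 by 0.89 (SE 0.25, adjusted p = 0.0355) and for Eif2b5 by 0.76 (SE 0.22, adjusted p = 0.0393). Exons of Eif2b4 overlap Snx17 on the other strand.

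Subunits of eIF3 differed among themselves. Of 12 tested in the livers, Eif3b and Eif3d fell, 9 had a negative sign, and in 5 all No-Trp livers lay below all controls (41.7%, against 24.3% of all genes tested). Eif3d, a subunit that can itself bind the cap, was 203, 214 and 252 CPM on control diet and 142, 118 and 157 CPM on No-Trp, and fell by 0.68 (SE 0.18, edgeR, adjusted p = 0.0351). Eif3b, a core scaffold subunit, was 493, 473 and 569 CPM and 324, 286 and 353 CPM, and fell by 0.67 (SE 0.19, adjusted p = 0.0420). Its partner Eif3a came close, with a log2 fold change of -0.63 (adjusted p = 0.0553). Eif3c, Eif3f and Eif3h had positive values, of 0.14, 0.27 and 0.013. In the xenografts 11 of 12 subunits had a negative sign and 6 were lower in all No-Trp tumors (50%, against 12.4% of all genes tested), but none passed, and the median log2 fold change of all 48 members there, -0.071, was 0.034 with library totals. Eif3k, the smallest p there, was 173, 152 and 172 CPM in controls and 100.5, 116 and 130.3 CPM on No-Trp (log2 fold change -0.52, SE 0.15, edgeR, adjusted p = 0.158). Eif3f was 307, 293 and 227 CPM and 201, 155 and 199 CPM in the xenografts (log2 fold change -0.57, SE 0.18, adjusted p = 0.173), and 224, 189.8 and 224 CPM and 249.7, 282 and 236 CPM in the livers. Its No-Trp libraries were thus all below the controls in the tumors and all above them in the livers, and the effects differed by -0.81 (SE 0.23, edgeR, adjusted p = 0.0358). With library totals this difference was -0.42 (adjusted p = 0.28). Eif3c was the exception in the tumors, at 276, 353 and 306 CPM and 315, 497 and 508 CPM, where No-Trp xenografts 36 and 37 stood above all controls and xenograft 35 did not.

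The helicase genes include Eif4a1, the highest member per length in control livers, which fell there. It was 1334, 968 and 1134 CPM in control livers and 662, 489 and 725 CPM on No-Trp, and fell by 0.87 (SE 0.26, edgeR, adjusted p = 0.0449). No-Trp mouse 107 was the lowest. Eif4a3, the helicase of the exon junction complex, was 131, 131 and 152 CPM and 92.7, 72.5 and 85.4 CPM, and fell by 0.72 (SE 0.16, adjusted p = 0.0249). Eif4a2 was 453, 319 and 351 CPM and 256, 261 and 304 CPM, without overlap (log2 fold change -0.45, adjusted p = 0.136), and exons of it overlap Rfc4 on the other strand. All 5 genes of this group had a negative sign in both models. In the xenografts Eif4a2 had the smallest p, at 660.1, 745 and 587 CPM and 443, 555 and 518 CPM (log2 fold change -0.39, SE 0.16, edgeR, adjusted p = 0.264), and Eif4a1 was 1294, 1352 and 1241 CPM and 1081, 1170.3 and 1198 CPM, and in each of these genes all No-Trp tumors lay below the controls. The helper genes Eif4b and Eif4h had log2 fold changes of -0.24 and -0.32 in the livers and -0.32 and -0.11 in the xenografts.

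Of the 3 scaffold genes, 2 had a positive sign in the livers and all 3 in the xenografts. Eif4g1, the main eIF4G gene, was 609, 873 and 883 CPM in control livers and 785, 962 and 685 CPM on No-Trp, with overlap (log2 fold change 0.041, SE 0.25). In the xenografts it was 733, 986 and 682 CPM and 1036, 1122 and 1038 CPM, with all No-Trp tumors above the controls (log2 fold change 0.41, SE 0.17, edgeR, adjusted p = 0.278). Eif4g3 was 141, 138 and 148 CPM and 196, 173 and 190.3 CPM in the livers, also without overlap (log2 fold change 0.39, SE 0.14, adjusted p = 0.0839). In the xenografts it was 67.9, 86.7 and 139 CPM and 130.2, 110.0 and 112 CPM, with control 43 the highest of the 6. Eif4g2, whose product lacks the eIF4E-binding part, differed little, with -0.18 in the livers and 0.16 in the xenografts on the log2 scale. All No-Trp livers still lay below the controls in this gene (edgeR, adjusted p = 0.543).

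The cap-binding gene Eif4e had the largest fall of the 12 called members. It was 204, 170.4 and 212 CPM in control livers and 122, 76.3 and 115 CPM in No-Trp livers, a log2 fold change of -0.90 (SE 0.22, edgeR, adjusted p = 0.0293), with mouse 107 the lowest. In the xenografts it was 182, 169.8 and 183 CPM and 157, 181 and 206 CPM, with overlap (0.028, SE 0.15), and the difference between models was 0.95 (SE 0.26, adjusted p = 0.0304). Eif4enif1, whose product carries eIF4E between cell compartments, was 77.2, 76.4 and 85.7 CPM and 55.7, 48.6 and 50.9 CPM in the livers. It fell by 0.62 (SE 0.14, adjusted p = 0.0247), while the xenografts, at 66.9, 84.5 and 81.7 CPM and 74.7, 82.8 and 85.0 CPM, overlapped. For this gene the models differed by 0.71 (SE 0.19, adjusted p = 0.0278). Eif4e3, a low-level cap-binding paralogue, was higher in all No-Trp libraries of both models without passing. It was 3.48, 4.87 and 3.65 CPM and 7.61, 5.23 and 6.55 CPM in the livers (0.69, SE 0.28, adjusted p = 0.10). In the xenografts it was 4.99, 6.96 and 5.35 CPM and 10.9, 7.95 and 10.4 CPM (0.75, SE 0.28, adjusted p = 0.229). Eif4e2 had log2 fold changes of -0.28 and -0.12.

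**Figure D3:**
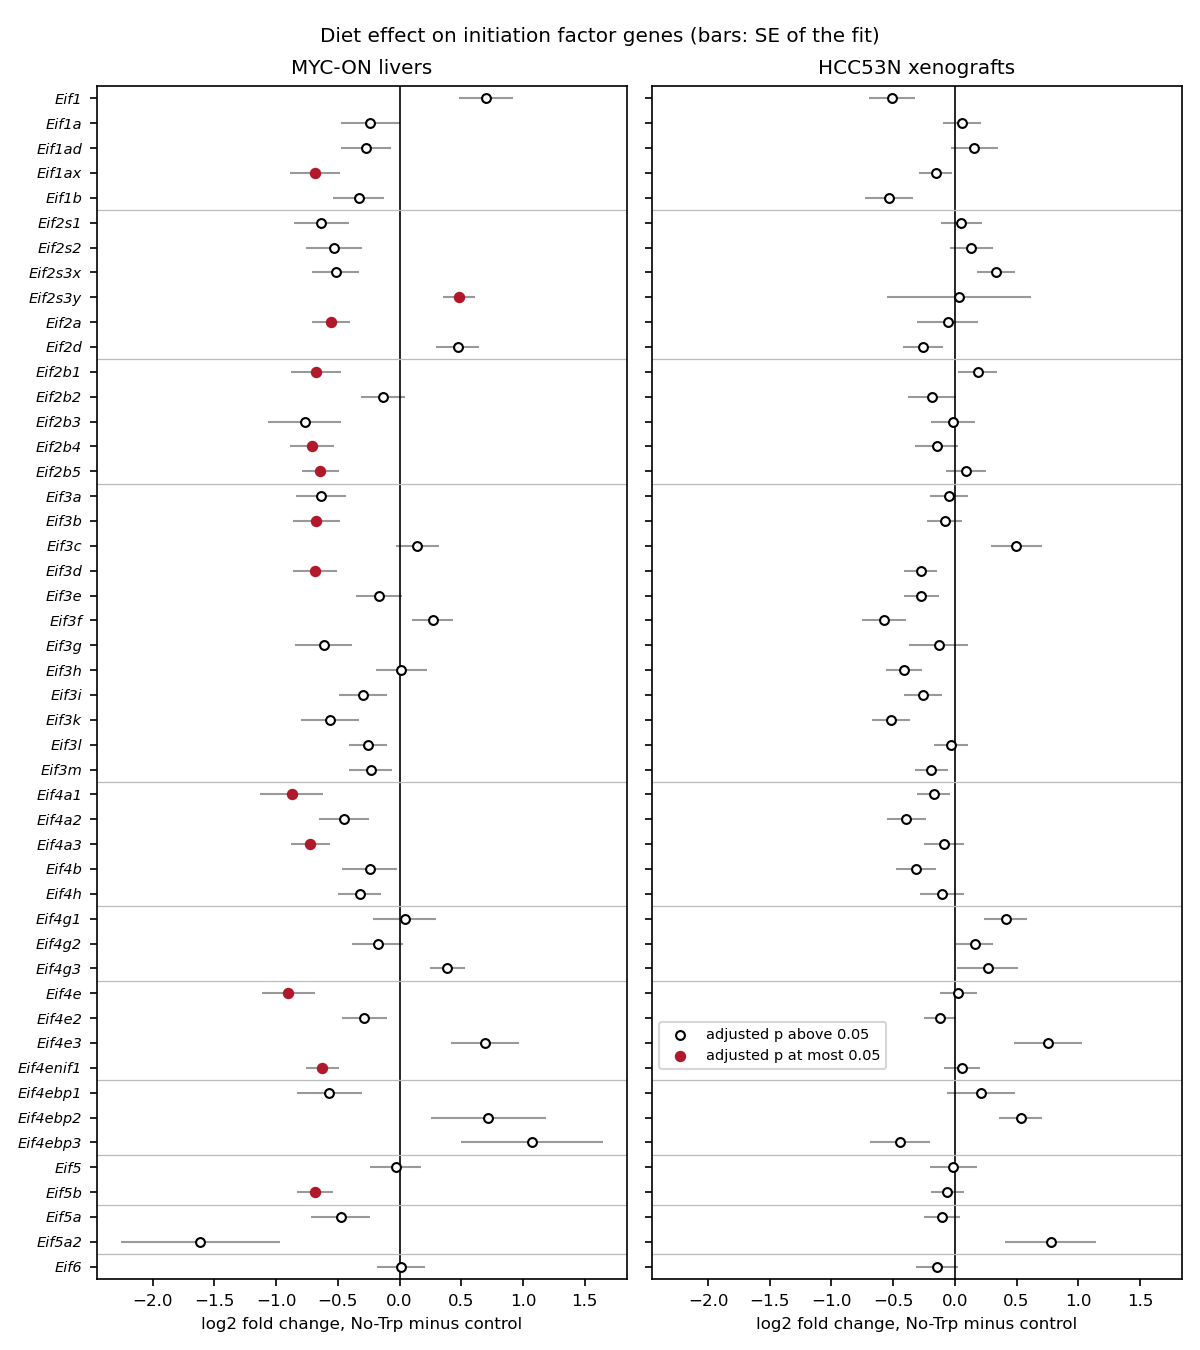
Points are log2 fold changes of No-Trp against control diet from edgeR, with bars of 1 SE, for 48 members in the livers (left) and in the xenografts (right), 3 mice per group. Red points passed at an adjusted p of at most 0.05: 12 below and 1 above 0 in the livers, and none in the xenografts.

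The 4E-BP genes, which encode the brakes on eIF4E, varied widely between mice of a group. Eif4ebp1 was 145, 96.1 and 114 CPM in control livers and 71.5, 59.6 and 108 CPM on No-Trp, with overlap (log2 fold change -0.57, SE 0.26, edgeR, adjusted p = 0.143). Eif4ebp2 was 40.0, 88.2 and 112 CPM and 136, 190.2 and 69.0 CPM (0.72, SE 0.47, adjusted p = 0.282). Control mouse 101 was low and No-Trp mouse 107 high, and the diets overlapped. Eif4ebp3 was 23.1, 42.6 and 11.1 CPM and 35.2, 34.8 and 91.4 CPM, again with overlap. In the xenografts Eif4ebp2 was 25.8, 35.4 and 29.7 CPM and 43.9, 48.3 and 39.5 CPM, with all No-Trp tumors above the controls (0.53, SE 0.17, edgeR, adjusted p = 0.187), and Eif4ebp1 was 186, 160.4 and 144 CPM and 111, 249 and 209 CPM.

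Eif5b had the smallest p of all members in the livers. It was 230.1, 205 and 217 CPM on control diet and 134, 129 and 143 CPM on No-Trp, with tight groups far apart, and fell by 0.68 (SE 0.15, edgeR, adjusted p = 0.0239). In the xenografts it was 157, 184 and 166 CPM and 163, 155 and 168 CPM (-0.06, SE 0.14), and the effects differed by 0.65 (SE 0.17, adjusted p = 0.0286). Exons of Eif5b overlap Rev1 on the other strand. Eif5 had log2 fold changes of -0.031 and -0.012, and Eif6 of 0.011 and -0.15, each within 1 SE of 0, and Eif6 in the livers was -0.28 with library totals. Eif6 was 152, 137 and 189.8 CPM and 156, 139 and 187 CPM in the livers and 224, 172 and 186 CPM and 152, 203 and 170.3 CPM in the xenografts. Eif5a was 1413, 1171 and 1409 CPM in control livers and 1003, 796 and 1072 CPM on No-Trp, without overlap (-0.48, SE 0.24, adjusted p = 0.174), and 1212, 1077 and 1053 CPM and 941, 1109 and 1055 CPM in the xenografts. Eif5a2, at a far lower level, was 0.933, 2.90 and 2.59 CPM and 0.913, 0.220 and 0.966 CPM in the livers (-1.61, SE 0.64, adjusted p = 0.101) and 3.50, 3.98 and 2.43 CPM and 6.33, 3.88 and 6.83 CPM in the xenografts (0.78, SE 0.37, adjusted p = 0.328). The sign was negative in one model and positive in the other, and the test of that difference gave 2.41 (SE 0.76, edgeR, adjusted p = 0.0507), just short of passing.

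The test of the difference in diet effect between the models was passed by 8 members. Positive values, a diet effect more positive in the xenografts, were called for 6 of 48 (12.5%, against 8.25% of 15472 genes) and negative ones for 2 (4.17%, against 7.39%), against an all-gene median of 0.034 on the log2 scale. The 6 were Eif2s3x, Eif2b1, Eif2b5, Eif4e, Eif4enif1 and Eif5b, and the 2 were Eif1 and Eif3f. No library is shared by the diet comparisons of the livers and of the xenografts. Of the 48 members, 24 were lower on No-Trp in both (50%, against 25.8% of 13481 genes). Higher in both were 6 of the 48 members, against 3248 of the 13481 genes. The sign was the same in both for 62.5% of members, against 49.9% of all genes. Scaled by library totals, 12 positive and 0 negative differences passed among the members, and 2056 and 507 over all 15472 genes. With RLE factors these were 5 and 3 among the members, and 1134 and 1354 over all genes. These calls too depended on which mice were in the fit, among the members as among all genes. Without control liver 103 no member passed, where 492 positive and 475 negative differences of 15719 genes did. No positive difference passed without control xenograft 40 or 43 or No-Trp xenograft 36, and 1 passed without No-Trp liver 107 or No-Trp xenograft 37, 2 without No-Trp liver 105, 3 without control liver 101, 4 without control xenograft 41 and 10 without No-Trp liver 108. Negative differences numbered 1 or 2 in all fits but that without control liver 103. Over all genes, leaving out single mice gave 492 to 1388 positive and 475 to 1572 negative differences, against 1276 and 1144 in the main fit.

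**Figure D4:**
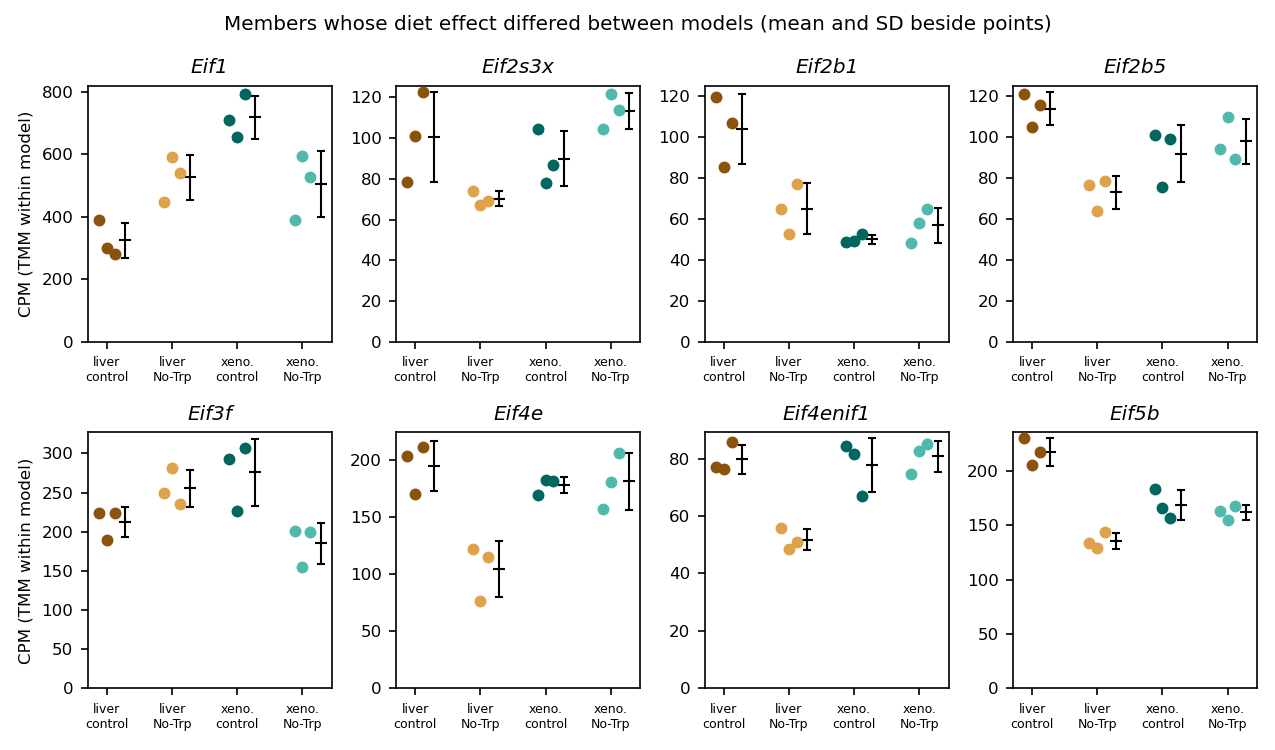
Points are CPM of each library (TMM factors within each model) for the 8 members that passed the test of the difference between models, 3 mice per group, with the mean and SD beside them. For Eif2s3x, Eif2b1, Eif2b5, Eif4e, Eif4enif1 and Eif5b the No-Trp livers lie below the control livers and the xenografts overlap. For Eif1 and Eif3f the No-Trp mice lie above the controls in the livers and below them in the xenografts.

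Ratios of paralogues within a library do not depend on the scaling between libraries. For 7 fixed pairs the log2 ratio of counts was compared between diets with an exact two-sided permutation test, which cannot go below p = 0.1 with 3 mice against 3. In the livers 4 ratios did not overlap between diets, each with exact p = 0.1 and 0.175 after adjustment over the 7. Eif4e3 to Eif4e was -5.61 ± 0.42 (SD, n = 3) in controls and -4.00 ± 0.14 (SD, n = 3) on No-Trp, a difference of 1.62. Eif1b to Eif1 was -3.38 ± 0.18 (SD, n = 3) and -4.39 ± 0.29 (SD, n = 3), a difference of -1.01. Eif2s3y to Eif2s3x was -0.85 ± 0.38 (SD, n = 3) and 0.13 ± 0.12 (SD, n = 3), a difference of 0.98. Raw counts of the Y-linked copy were thus below those of the X-linked copy in the controls and about equal to them on No-Trp. These counts are not scaled by exon length, which is 1836 bases for Eif2s3y and 3720 for Eif2s3x. Per length, Eif2s3y and Eif2s3x stood at 34.1 ± 1.54 and 30.7 ± 6.55 RPKM (SD, n = 3) in control livers. On No-Trp they stood at 47.1 ± 1.75 and 21.2 ± 1.17 RPKM (SD, n = 3). Eif4a2 to Eif4a1 was -1.62 ± 0.069 (SD, n = 3) and -1.18 ± 0.24 (SD, n = 3), a difference of 0.44. The ratios Eif4ebp2 to Eif4ebp1 (1.32, exact p = 0.3), Eif5a2 to Eif5a (-1.17, exact p = 0.3) and Eif4g3 to Eif4g1 (0.34, exact p = 0.2) overlapped between the diets. In the xenografts only Eif4e3 to Eif4e was apart, at -4.95 ± 0.31 (SD, n = 3) and -4.22 ± 0.34 (SD, n = 3), a difference of 0.73 (exact p = 0.1, 0.467 after adjustment), and the other 6 ratios overlapped.

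**Figure D5:**
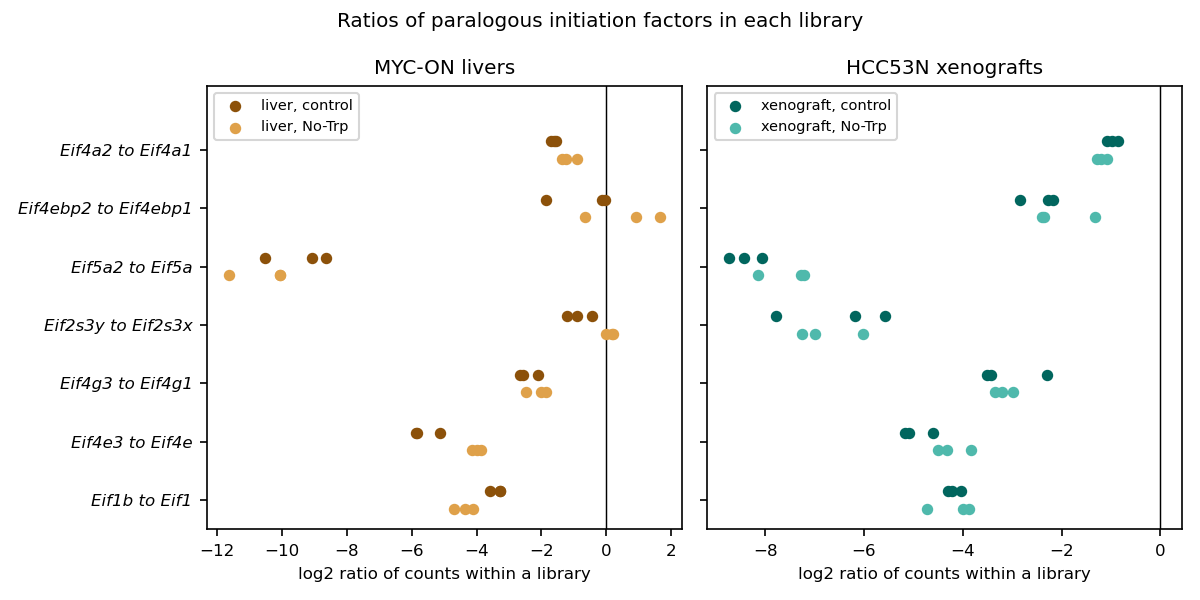
Points are log2 ratios of the counts of 2 paralogous genes within a library (0.5 added to each count), 3 mice per group, for the 7 fixed pairs. In the livers the diets are apart for Eif4a2 to Eif4a1, Eif2s3y to Eif2s3x, Eif4e3 to Eif4e and Eif1b to Eif1, and in the xenografts for Eif4e3 to Eif4e.

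The models themselves differed in many members. Cell origin, strain and site of growth differ between them, as may the sex of the mouse, and cannot be told apart. On the control diet 20 of 48 members were lower in xenografts and 4 higher (41.7% and 8.33%, against 28.7% and 30.8% of 15472 genes, edgeR). On the No-Trp diet 11 were lower and 11 higher (22.9% each, against 26.4% and 33.2%), where the median of all genes lay at 0.15 on the log2 scale. Library totals gave 12 lower and 4 higher members on the control diet, and 3521 and 5164 over all genes. On No-Trp they gave 5 lower and 27 higher members, and 2532 and 7502 over all genes, with an all-gene median of 0.68. RLE factors gave 12 lower and 7 higher members on No-Trp, and 4503 and 4663 over all genes. The contrasts on the diets compare different libraries, but they come from the same fit over all 12, with shared scaling and spread. In it 9 members were lower and 3 higher in xenografts on both diets. The share of all genes called on both diets was not counted, so these numbers cannot be called unusual. Eif2s3y, on the Y chromosome, had the widest gap. Its level was 35.8, 33.6 and 32.8 RPKM in control livers 101, 102 and 103 and 0.561, 0.217 and 0.763 RPKM in control xenografts 40, 41 and 43, a log2 difference of -6.09 (SE 0.38), and -6.47 (SE 0.38) on No-Trp.

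Subunits of eIF2B differed between the models in both directions. Eif2b4 was lower in xenografts on both diets (log2 difference -1.66, SE 0.18, on control diet and -1.07, SE 0.18, on No-Trp), as were Eif2b1 (-1.42 and -0.53) and Eif2b3 (-1.56 and -0.78). Eif2b2 was higher, at 61.9, 62.7 and 45.3 RPKM in control xenografts and 38.0, 28.3 and 30.9 RPKM in control livers (log2 difference 0.81, SE 0.19, edgeR, adjusted p = 0.00348). Scaled by library totals, 5 of the 9 members lower on both diets no longer passed on No-Trp, namely Eif2b1 (log2 difference -0.019), Eif2b3 (-0.29), Eif3i (-0.46), Eif4e2 (-0.23) and Eif4g3 (-0.47). In eIF3, Eif3h was higher in xenografts (0.98 and 0.59 on the diets in turn) and Eif3i lower (-1.05 and -0.98). Eif4ebp2 was lower (-1.77, SE 0.38, and -1.92, SE 0.38), and so were Eif2d, Eif4e2 and Eif4g3, while Eif4a2 was higher. The sign turned for 1 member that passed on both diets, Eif4e, with -0.50 on control diet and 0.45 on No-Trp (edgeR, adjusted p = 0.0320 and 0.0484), and its value on No-Trp did not pass with RLE factors or DESeq2 (adjusted p = 0.10 and 0.115), nor its value on control diet with library totals (-0.34, adjusted p = 0.234).

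Genes that work with the initiation factors were counted from lists made by textbook role. These lists were chosen with earlier results of these data known, so their shares beside all genes are descriptions and not tests. None of 7 genes around eIF2 phosphorylation (eIF2 kinases, phosphatase subunits and Impact) passed in either model. The smallest p in the livers was that of Eif2ak4, which encodes GCN2, with a log2 fold change of -0.45 (adjusted p = 0.0996), and in the xenografts that of Ppp1r15b (0.30, adjusted p = 0.336). Among 10 ATF4 targets, genes raised when eIF2 is phosphorylated, 3 rose in the livers and none fell (30%, against 13.3% of all genes rising). They were Vldlr (3.42, SE 0.36), Sesn2 (1.30, SE 0.22) and Trib3 (2.50, SE 0.65). Of the other 7, none passed and 5 had a negative sign, with the largest negative values in the amino acid synthesis genes Phgdh (-1.70, SE 0.67, adjusted p = 0.101), Psat1 (-1.37, SE 0.62, adjusted p = 0.139) and Asns (-1.08, SE 0.45, adjusted p = 0.116). In the xenografts none passed (edgeR), and the smallest p values were those of Sesn2 (1.09, adjusted p = 0.0778) and Asns (1.82, adjusted p = 0.132). All 5 tested genes of polyamine and hypusine synthesis, the pathway that modifies eIF5A, fell in the livers (100%, against 12% of all genes falling), with a median log2 fold change of -0.97. Odc1, the first enzyme of the pathway, fell by 0.97 (SE 0.26). Dhps, which attaches the hypusine precursor, fell by 0.88 (SE 0.19), the spermidine synthase gene Srm by 1.40 (SE 0.34) and the spermine synthase gene Sms fell by 1.36 (SE 0.34), and none passed in the xenografts. The sixth gene, Amd1, had 0 reads in every library. As with Eif3j1 and Eif3j2, how the counting treated reads that match more than 1 gene is not given. This 0 is thus uncertain and does not show that Amd1 was silent.

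Among 14 initiation partners, 3 rose and 1 fell in the livers (21.4% and 7.14%, against 13.3% and 12% of all genes tested). The gene of the poly(A)-binding protein partner Paip1 rose by 0.72 (SE 0.19). Mknk1 and Mknk2, the kinases that phosphorylate eIF4E, rose by 1.04 and 1.13 (SE 0.21 and 0.20, edgeR, adjusted p = 0.0216 and 0.0196), opposite in sign to Eif4e itself, and Abce1, which recycles ribosomes, fell by 0.85 (SE 0.17). Of 8 genes with Eef symbols, listed under cytosolic elongation, 1 fell (12.5%, close to the 12% of all genes). It was Eef2k (log2 fold change -1.52, SE 0.37, edgeR, adjusted p = 0.0297), which encodes a kinase and not an elongation factor, and no other gene of that list passed. Of 9 mitochondrial translation factors 1 fell (11.1%), Tsfm (-0.81, SE 0.23, adjusted p = 0.0407). None of 5 termination and rescue factors passed in the livers, and no gene of these 4 lists passed in the xenografts.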

How the data were processed

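The authors deposited whole-number HTSeq read counts per gene for each library of polyadenylated RNA. Per the labels and the study's methods, reads were trimmed with Trim Galore and aligned with STAR 2.7.2b to mm10. The strand and overlap settings of HTSeq are not given in the sources used here. Rows that name no gene took 24.715% to 39.425% of the reads and were left out. Samples were grouped by the labels, with 1 library per mouse.

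Counts were fitted over all genes with edgeR 4.0.16 (filterByExpr, TMM factors, robust quasi-likelihood test) in R 4.3.3, within each model for the diet and over 12 libraries for the difference between models. A gene passed where its p, adjusted by the Benjamini-Hochberg method, was 0.05 or less. CPM used the TMM factors fitted within each model, and RPKM those fitted over all 12 libraries. Genes described are all members that passed, and the member with the smallest p of each complex. Alternatives were DESeq2 1.42.0, RLE factors, library totals, no filter, a minimum of 10 counts in every library, leaving out Rn45s, the resubmission mark as a term, one fit over 12 libraries, and leaving out each mouse. The test was tried on simulated data first. Members and gene lists were chosen with earlier results of these data known. Of the members, 9 share exon sequence with another counted gene, and without strand, reads of overlapping genes cannot be told apart.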

Additional observations from a re-analysis of the deposited data

Results flagged for a closer look

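For 8 members the diet effect differed between the models by the test of the difference itself (edgeR, 12 libraries, 3 mice per group, xenograft effect minus liver effect on the log2 scale). The differences were -1.18 for Eif1, -0.81 for Eif3f, 0.89 for Eif2b1, 0.76 for Eif2b5, 0.88 for Eif2s3x, 0.95 for Eif4e, 0.71 for Eif4enif1 and 0.65 for Eif5b. When each of the 12 mice was left out in turn, all 8 kept their sign. Eif1 passed in 11 of these 12 fits and each of the others in 3 to 6. In the same libraries all 8 cell division markers passed the test of the difference as well, with a median of 2.78, and the part of that difference in the values above was not tested.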

How the results depend on the processing

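No paired analysis was possible because the groups share no animal numbers. All 13 members called in the livers kept their direction under all alternatives, and no member passed in the xenografts under any of them. A called fold of at least 2 left 0 and 0 members higher and lower in the livers, 0 and 1 in the difference between models, 0 and 6 in xenografts against livers on control diet, and 1 and 6 on No-Trp. Over all genes, it left 1311 and 1026 of 14122 in the livers and 1036 and 930 of 15472 in the difference. In xenografts against livers it left 3603 and 3121 of 15472 genes on control diet and 3796 and 2959 on No-Trp. Library totals shifted the median of all genes in the livers by -0.30. With them 0 members rose in the livers, the members' median log2 fold change was -0.62 in the livers and turned to 0.034 in the xenografts, 12 and 0 differences were called higher and lower, 12 members were lower in xenografts on control diet, and 27 and 5 higher and lower on No-Trp. Over all genes, library totals gave 888 rises in the livers and 2056 and 507 differences higher and lower. They gave 3521 genes lower in xenografts on control diet, and 7502 and 2532 higher and lower on No-Trp. With RLE factors 7 members were higher on No-Trp, as were 4663 of all 15472 genes. In the livers 2 members rose by DESeq2, 0 with no filter, and 4 with the resubmission mark as a term, when 19 fell. Over all genes 2440 of 15547, 1680 of 18881 and 2141 of 14122 rose in these fits, and 1935 fell in the last. Leaving out each mouse gave 0 to 13 falls and 0 to 0 rises in the livers, 0 to 10 positive and 0 to 2 negative differences, and 5 to 11 members higher in xenografts on No-Trp. Over all genes these fits gave 1 to 1828 falls and 7 to 2340 rises in the livers. They gave 492 to 1388 positive and 475 to 1572 negative differences, and 4533 to 5218 genes higher in xenografts on No-Trp. Eif6 in the livers turned to -0.28 (library totals), -0.00054 (10 counts) and -0.0034 (one fit), and ranged from -0.11 to 0.14 without single mice. Eif5b in the xenografts turned to 0.049 (library totals) and 0.046 (resubmission mark), and ranged from -0.11 to 0.0040. Without single xenografts the ratio Eif2s3y to Eif2s3x ranged from -0.87 to 0.23, Eif4g3 to Eif4g1 from -0.32 to 0.29 and Eif1b to Eif1 from -0.17 to 0.25. The cause of these changes was not tested. With 3 mice per group, exact tests cannot go below 0.1, and genes of low counts such as Eif5a2 and Eif2s3y in xenografts have wide errors.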

Other observations

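In the xenografts the 8 cell division markers had positive signs without passing (edgeR, 3 mice per group), and 5 of them were higher in all No-Trp tumors, whereas all 8 fell in the livers. Endothelial markers summed to 55.3 to 136.8 CPM in control xenografts and 147.6 to 235.6 CPM on No-Trp, and skeletal muscle markers to 1.78 to 16.1 CPM and 25.6 to 51.9 CPM, without overlap in either list. The 14 initiation partners had 3 positive and 2 negative differences between models that passed (21.4% and 14.3%), and the polyamine and hypusine genes 3 positive ones (60%) and no negative ones of 5 tested, with a median of 1.00 on the log2 scale. Of all genes tested, 8.25% had a positive and 7.39% a negative difference that passed.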
